A study of Homo sapiens with 30 samples.

Results

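The libraries described here measure the response of a p53-null cell line to p53 made from a template that carries a DNA lesion. They are 6 of the 30 RNA-seq libraries of the study, namely the 3 replicates of p53 O6-meG and the 3 replicates of pGFP at 24 h, and they were taken by their labels alone. H1299 is a human lung carcinoma line with no p53 of its own. The pGFP cells carried a vector that expressed only green fluorescent protein. The p53 O6-meG cells carried a vector with the wild type p53 coding sequence next to GFP, in which a single O6-methylguanine (O6-meG) sat on the template strand at codon 248. In both groups the vectors were delivered by transient transfection, each gene stood under its own tetracycline-response promoter, no O6-benzylguanine (O6-bzG) was added, and GFP-positive cells were sorted before RNA was purified. RNA was therefore taken from a population that holds many copies of a plasmid, and the protein level of p53 was not analysed here. For reference, 3 libraries of wild type p53 and 3 of RW mutant p53 (altered at codon 248) at 24 h were used, in which the vectors held no lesion. The question of the comparison is how far the transcriptional program of p53 runs when its template carries O6-meG and the repair enzyme is left active.

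O6-meG is a mutagenic base that RNA polymerase can read as adenine, so that uridine is placed opposite it. O6-alkylguanine-DNA alkyltransferase (AGT), the product of MGMT, removes the methyl group in a single step and is inactivated by O6-bzG, which was absent here. p53 is a transcription factor that binds DNA as a tetramer at paired decamers and activates genes of cell cycle arrest, apoptosis, DNA repair and metabolism, together with MDM2, the ubiquitin ligase that degrades it. Its repression of cell cycle genes is mostly indirect: p21, encoded by CDKN1A, inhibits cyclin-dependent kinases and the DREAM complex then holds down genes through CHR and E2F promoter elements.

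Promoter sequences of genes on each side of the response are shown first, because the elements in them are set beside the changes of their genes further on. All are from RefSeq on GRCh38.p14, read 5′ to 3′ on the strand of the gene, with positions counted from the start, where the base before it is −1. For 3 mitotic genes the 100 bases before a start are given. CHR elements (TTTGAA or TTCGAA, either strand) and CCAAT boxes (CCAAT, either strand) are in capitals. CDK1 has 2 promoter windows and CDC25C 4, and the window shown was chosen among them for display. CDK1 encodes the kinase that drives entry into mitosis, CDCA8 the chromosomal passenger protein borealin and CDC25C a phosphatase that activates CDK1. The CHR elements lie at −69 and −13 in CDK1, at −23 in CDCA8 and at −30 in CDC25C. In CDCA8 the last base of the CHR is also the first base of a CCAAT box.
CDK1 (chr10:60778378-60778477, plus strand): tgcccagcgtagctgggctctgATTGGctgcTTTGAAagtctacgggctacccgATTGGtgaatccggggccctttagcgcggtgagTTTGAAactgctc
CDCA8 (chr1:37692416-37692515, plus strand): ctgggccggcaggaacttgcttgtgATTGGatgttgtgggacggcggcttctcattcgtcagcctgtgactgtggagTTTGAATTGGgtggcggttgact
CDC25C (chr5:138331805-138331904, minus strand): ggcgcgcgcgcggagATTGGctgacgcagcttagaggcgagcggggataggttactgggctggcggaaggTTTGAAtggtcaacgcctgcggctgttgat

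A full p53 site, here 2 consensus decamers with a spacer of at most 13 bases, was found in 5 of the 18314 promoter windows of genes tested (0.0273%). Each window runs from 250 bases before to 50 bases after a start. The 4 genes among them that were called as differentially expressed are given with the decamers in capitals, and they were chosen for display after their values had been seen. DDB2 encodes a subunit of the sensor of UV damage, LNCTAM34A is a long non-coding RNA of the locus of miR-34a, MCC is a gene named for its mutation in colorectal cancer, and PTCHD4 encodes a relative of the receptor Patched. The DDB2 site lies just after the start of that window, at 5 to 25.
DDB2 (chr11:47214979-47214999, plus strand): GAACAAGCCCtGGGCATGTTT
LNCTAM34A (chr1:9182124-9182183, plus strand): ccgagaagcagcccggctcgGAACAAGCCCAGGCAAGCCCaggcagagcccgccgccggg
MCC (chr5:113488484-113488533, minus strand): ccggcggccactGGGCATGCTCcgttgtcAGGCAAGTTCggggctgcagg
PTCHD4 (chr6:48111198-48111237, minus strand): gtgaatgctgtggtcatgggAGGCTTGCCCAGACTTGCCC

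The 6 libraries held between 32302699 and 46469960 reads counted on genes. Levels are given as CPM, the counts of a gene relative to a library total scaled by TMM, and 20875 genes were tested. DEGs were genes that changed 2-fold or more and had an adjusted P under 0.05 (edgeR's quasi-likelihood test, Benjamini-Hochberg). All P values below are of this kind, from a fit of all 30 libraries. A member of a list "passed" when its adjusted P was below 0.05, with no limit on the fold. Against pGFP 17.9% of all genes tested passed higher and 11.3% lower, and the list counts below stand beside these shares. The cells expressed the filament genes of a carcinoma line in every library, with VIM at 1940 to 3340 CPM and KRT18 at 300 to 436 CPM. Lung lineage genes were near 0 (NKX2-1 at most 0.793 CPM, SFTPB, SFTPC and SCGB1A1 at most 5 counts), as were the leukocyte gene PTPRC and the endothelial gene CDH5 at 1 count or fewer. Of 11 markers of leukocytes, endothelium, fibroblasts and epithelial adhesion 8 could be tested, and of these COL1A1 passed, at a mean of 0.674 CPM with p53 O6-meG against 1.69 CPM with pGFP. Their summed level was 3.59 to 5.81 CPM with p53 O6-meG and 5.27 to 6.31 CPM with pGFP, and its part in the results was not tested. Replicate numbers pair the libraries at 24 h, and where a fit with the number as a block changed a count by more than 1.5 times its value is given.

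At 24 h p53 O6-meG changed 1899 genes against pGFP (9.1% of those tested), 1520 higher (7.28%) and 379 lower (1.82%). Thus 80% of the DEGs were higher. The rises were also larger: 646 genes rose at least 4-fold, 314 at least 8-fold and 190 at least 16-fold, while 26 genes fell at least 4-fold and 2 at least 8-fold. The median log2 fold change was 1.78 over the DEGs that were higher, −1.3 over those that were lower and 0.009 over all genes tested. In 1498 of the 1520 every p53 O6-meG library lay above every pGFP library, and in 353 of the 379 every one lay below. Over all genes tested the groups lay apart in this way in 21.9% (higher) and 16.6% (lower). Without the fold limit 3743 genes were higher (17.9%) and 2363 lower (11.3%), together 29.3%. The replicate block over all libraries moved the second number to 3656 (17.5%), beside 4877 higher (23.4%). The block over the 15 libraries of 24 h moved it to 4419 (22%), beside 4817 higher (23.9%). The number of DEGs lower was 205 without pGFP replicate 1.

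DEGs were also counted by the level of a gene in pGFP cells, and these bins use pGFP values that enter the fold as well. Of 496 genes under 0.1 CPM in pGFP, 297 (59.9%) were DEGs that were higher and 0 were lower, a fall from so low a level not being detectable at this depth. Between 0.1 and 1 CPM 7.65% were higher and 3.79% lower, and between 1 and 10 CPM 8.13% and 2.82%. Few falls of 2-fold or more were seen among abundant genes. There 16 of 7425 genes at 10 to 100 CPM (0.215%) and 1 of 2235 over 100 CPM (0.0447%) were lower, against 4.71% and 1.39% that were higher. Without the fold limit falls were common in these bins, with 1127 genes (15.2%) and 225 genes (10.1%) lower, beside 1708 (23%) and 448 (20%) higher. A gene passes the filter at a very low pGFP level only when it is higher in some other group, so the first of these shares is fixed in part by the filter. In 201 of the DEGs that were higher, every pGFP library held at most 3 counts. Protein-coding genes made up 76.4% of the DEGs that were higher and 59.9% of those that were lower. Long non-coding RNAs made up 14.3% and 32.2%, against 16.6% of the genes tested.

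**Figure D1:**
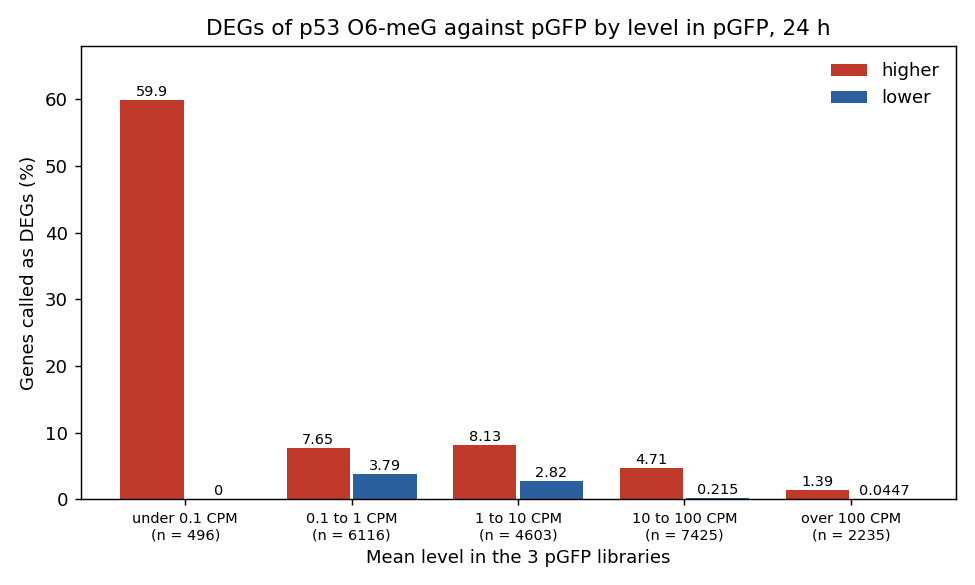
Percentage of genes tested that were DEGs of p53 O6-meG against pGFP at 24 h, by their mean level in the 3 pGFP libraries in CPM (red, higher; blue, lower; the number of genes tested stands under each bin). DEGs that were higher made up 59.9% of genes under 0.1 CPM and 1.39% of genes over 100 CPM, and DEGs that were lower peaked at 3.79% between 0.1 and 1 CPM.

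Of 14 genes of cell cycle arrest tested, 7 rose with p53 O6-meG and 7 did not pass, where 17.9% of all genes tested passed higher. CDKN1A (ENSG00000124762.13, chromosome 6, 36676460 to 36687337 of hg38), which encodes the kinase inhibitor p21, stood at 529, 781 and 518 CPM in replicates 1 to 3 of p53 O6-meG and at 44.7, 50.3 and 49.3 CPM in pGFP. Its groups lay far apart, and the level was 12.7-fold higher (log2 fold change 3.66, SE 0.47, adjusted P = 1.5e-06). GADD45A, a stress protein that inhibits CDK1, rose from 10.6, 19.8 and 19.1 CPM to 83.0, 73.8 and 81.9 CPM, a log2 fold change of 2.27 (SE 0.29, adjusted P = 1.9e-06). PLK3, a stress-activated kinase, rose from 9.61, 9.97 and 10.2 CPM to 30.6, 26.1 and 24.2 CPM, a log2 fold change of 1.44 (SE 0.20, adjusted P = 3.2e-06). The other members that rose were BTG2, SFN, PLK2 and RPRM. The median log2 fold change of the list was 0.95. The cyclin-dependent kinase inhibitor genes CDKN1B, CDKN1C and CDKN2B did not pass, with log2 fold changes of −0.09, −0.13 and 0.19.

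Negative regulators of p53 rose as well, in 5 of 6 members, with a median of 0.66. MDM2 (ENSG00000135679.22, chromosome 12, 68808177 to 68845544) was measured at 1910, 1890 and 1350 CPM with p53 O6-meG and at 178, 186 and 171 CPM with pGFP. This was 9.64-fold higher (log2 fold change 3.27, SE 0.40, adjusted P = 1.0e-06). The cyclin gene CCNG1 rose by a log2 fold change of 0.81 (SE 0.12), from 281, 334 and 313 CPM to 555, 613 and 461 CPM. COP1, another ubiquitin ligase for p53, rose by 0.51 (SE 0.08), and the phosphatase gene PPM1D rose by 1.09 (SE 0.19). MDM4, the partner of MDM2 that blocks the activation domain of p53, did not pass (log2 fold change 0.18, SE 0.11).

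**Figure D2:**
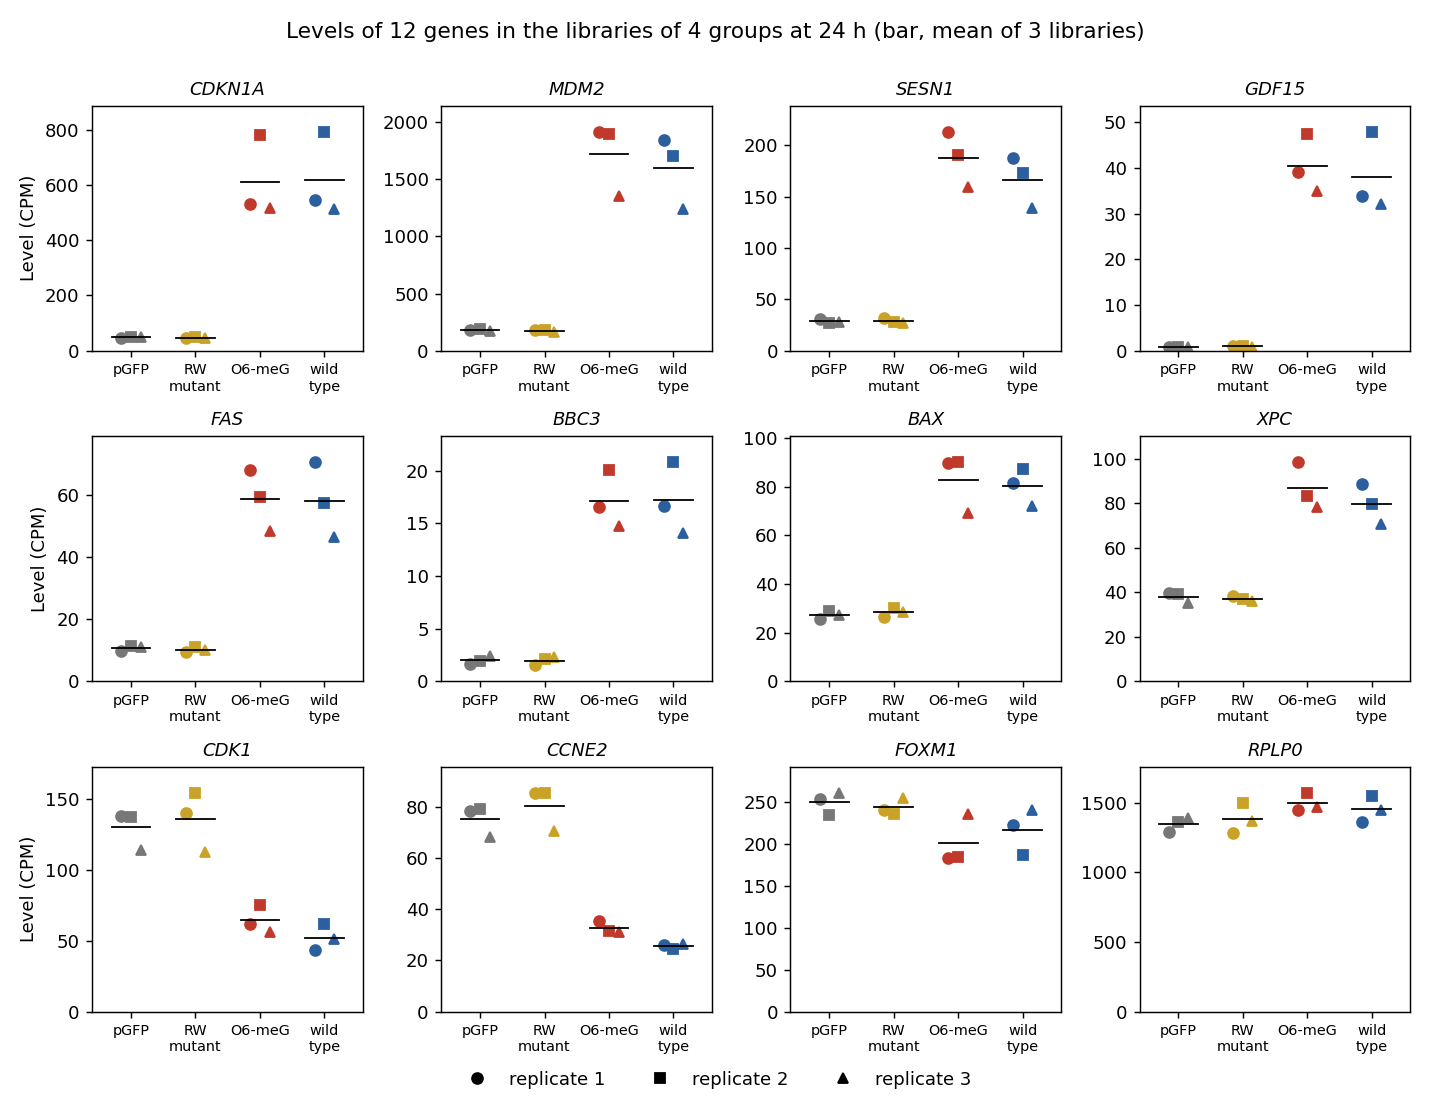
Level in CPM of 12 genes in each library of pGFP, RW mutant p53, p53 O6-meG and wild type p53 at 24 h (3 libraries a group; shape marks the replicate, bars the mean, and each vertical axis starts at 0). For CDKN1A the p53 O6-meG libraries sit at 518 to 781 CPM and pGFP at 44.7 to 50.3 CPM, while CDK1 and CCNE2 lie lower with p53 O6-meG than with pGFP.

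In the mitochondrial apoptosis list 11 of 17 members rose, 1 fell and 5 did not pass, with a median log2 fold change of 1.21. The list also holds genes whose proteins are not mitochondrial, such as EI24. AEN, a nuclease induced in apoptosis, was at 195, 181 and 168 CPM with p53 O6-meG and at 25.7, 31.8 and 36.1 CPM with pGFP (log2 fold change 2.54, SE 0.22, adjusted P = 3.3e-08). BBC3, which encodes the BH3-only protein PUMA, was at 16.6, 20.1 and 14.8 CPM against 1.65, 1.88 and 2.41 CPM (log2 fold change 3.11, SE 0.53). BAX, the pore-forming effector, rose from 25.5, 28.7 and 27.3 CPM to 89.6, 90.0 and 69.1 CPM (log2 fold change 1.61, SE 0.18, adjusted P = 3.6e-07). In each of these genes the lowest p53 O6-meG library lay above the highest pGFP library. The BH3-only gene BID rose by 1.21 (SE 0.12) and EI24, an endoplasmic reticulum protein, by 1.30 (SE 0.14). APAF1, the scaffold of the apoptosome, rose by 2.30 (SE 0.39), whereas CASP9, the caspase that it activates, fell by 0.68 on the log2 scale (SE 0.12, adjusted P = 7e-05). CASP9 stood at 9.25, 11.9 and 10.5 CPM with p53 O6-meG and at 18.5, 17.6 and 14.8 CPM with pGFP.

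Death receptors rose in 6 of the 9 members, with a median of 2.11. TNFRSF10B, a receptor for the ligand TRAIL, was at 266, 275 and 231 CPM against 49.7, 63.0 and 60.5 CPM with pGFP (log2 fold change 2.15, SE 0.24, adjusted P = 3.4e-07). Its relative TNFRSF10A was at 88.1, 79.9 and 71.2 CPM against 17, 21.2 and 22.3 CPM (log2 fold change 1.98, SE 0.23). Both receptors were higher in every p53 O6-meG library. FAS was at 68.1, 59.3 and 48.3 CPM against 9.61, 11.4 and 11.1 CPM (log2 fold change 2.45, SE 0.40). EDA2R, a receptor for ectodysplasin A2, rose by 4.25 (SE 0.45), and its pGFP libraries ranged between 0.092 and 0.159 CPM, with at most 7 counts. Among the TRAIL decoy receptors TNFRSF10D rose by 2.11 (SE 0.28) and TNFRSF10C fell by 0.58 (SE 0.19, adjusted P = 0.019). The adaptor FADD and the initiator CASP8 did not pass, at −0.17 and −0.07. Of 4 prosurvival BCL2 genes MCL1 rose, by 0.28 (SE 0.07, adjusted P = 0.0025), from 263, 297 and 274 CPM to 332, 362 and 323 CPM. BCL2L1, BCL2L2 and BCL2 did not pass, at 0.08, −0.04 and 0.02. Over all genes tested 17.9% passed higher and 11.3% lower.

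The DNA repair list was mixed: 5 of 14 members rose, 2 fell and 7 did not pass, and its median was 0.07. Over all genes tested 17.9% passed higher and 11.3% lower, so the share that fell is near that of all genes. DDB2 (ENSG00000134574.11, chromosome 11, 47214465 to 47239217), whose p53 site is printed above, was at 98.5, 98.9 and 79.9 CPM with p53 O6-meG and at 19.6, 22.0 and 20.9 CPM with pGFP. Its log2 fold change was 2.15 (SE 0.19, adjusted P = 3.3e-08). XPC, the other damage sensor of global nucleotide excision repair, was at 98.4, 83.5 and 78.4 CPM against 39.8, 39.1 and 35.2 CPM (log2 fold change 1.19, SE 0.19). RRM2B, the p53-inducible subunit of ribonucleotide reductase, was at 310, 314 and 229 CPM against 90.5, 103 and 87.9 CPM (log2 fold change 1.60, SE 0.17). The polymerase gene POLH, which copies past UV damage, rose by 1.99 (SE 0.35). FANCC, a gene of the Fanconi anaemia pathway, was among those that fell (−0.47, SE 0.12). MGMT, the gene of AGT, was at 17, 20.4 and 15 CPM with p53 O6-meG and at 12.9, 13.7 and 13.9 CPM with pGFP. The groups did not overlap, and the log2 fold change was 0.37 (SE 0.12, adjusted P = 0.017). The call rested on single libraries, with an adjusted P of 0.16 without p53 O6-meG replicate 2 and 0.067 without pGFP replicate 1.

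Metabolic and mTOR-restraining targets rose in 11 of 16 members, with a median of 1.61. SESN1, a sestrin that restrains mTORC1, was at 213, 191 and 159 CPM with p53 O6-meG and at 31.4, 27.2 and 27.8 CPM with pGFP (log2 fold change 2.71, SE 0.45, adjusted P = 3.8e-05). SESN2, its paralog, rose from 38.8, 34.6 and 38.0 CPM to 133, 103 and 105 CPM (log2 fold change 1.62, SE 0.21). The remaining paralog SESN3 went the other way, from 22.2, 19.3 and 15.2 CPM to 9.66, 9.50 and 7.79 CPM, and fell by 1.07 on the log2 scale (SE 0.27, adjusted P = 0.0032). The AMPK subunit gene PRKAB1 rose by 1.89 (SE 0.23). TIGAR, a phosphatase that lowers glycolytic flux, rose by 2.25 (SE 0.30). Larger rises were those of the glutaminase gene GLS2 (4.96, SE 0.78), the ferredoxin reductase gene FDXR (4.09, SE 0.55) and TP53I3 (3.90, SE 0.54).

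Of 17 other p53 effectors 15 rose and none fell, with a median of 1.92. ZMAT3, an RNA-binding protein, was at 127, 115 and 84.3 CPM with p53 O6-meG and at 29.4, 32.2 and 27 CPM with pGFP (log2 fold change 1.88, SE 0.20, adjusted P = 1.7e-07). GDF15, a secreted stress cytokine, was at 39.1, 47.5 and 34.9 CPM against 0.825, 0.749 and 0.736 CPM, which is 52.6-fold higher (log2 fold change 5.72, SE 0.85). The deaminase gene APOBEC3C rose by 1.77 (SE 0.20) and the hydrolase gene CMBL by 2.64 (SE 0.31). INPP5D, a phosphatase of phosphoinositides, held no more than 3 counts in any pGFP library and was at least 86.1-fold higher, taking 3 counts per library as the floor. TRIM22 and FUCA1 did not pass, at 1.34 (SE 0.54) and 0.17 (SE 0.10).

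Genes for secreted and surface proteins rose in 13 of 18 members, with a median of 0.94. The receptor tyrosine kinase gene EPHA2 was at 606, 596 and 523 CPM with p53 O6-meG against 130, 172 and 186 CPM with pGFP (log2 fold change 1.82, SE 0.23, adjusted P = 1.2e-06). EGFR, the receptor of epidermal growth factor, was at 127, 128 and 123 CPM against 64.8, 72.6 and 75.0 CPM (log2 fold change 0.83, SE 0.11), and its ligand gene TGFA rose by 1.04 (SE 0.13). EGFR and TGFA thus rose by similar factors, whereas HBEGF, the gene of another EGFR ligand, did not pass (0.11, SE 0.11). The Notch ligand gene JAG2 rose by 3.08 (SE 0.47) and the receptor gene NOTCH1 by 1.08 (SE 0.15), whereas JAG1 did not pass (0.15, SE 0.16). KITLG, the ligand of KIT, rose by 2.40 (SE 0.32). THBS1, PLAT and SEMA3B did not pass either.

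Among 6 long non-coding RNAs 3 rose and 1 fell, where 17.9% of all genes tested passed higher and 11.3% lower. MIR34AHG (ENSG00000228526.6, chromosome 1, 9148011 to 9198906, minus strand), the host transcript of miR-34a, was at 35.5, 18.7 and 19.3 CPM with p53 O6-meG and at 0.453, 0.204 and 0.161 CPM with pGFP. Its log2 fold change was 6.51 (SE 0.60, adjusted P = 5.4e-08). LNCTAM34A (ENSG00000234546.3, 9182004 to 9196284, plus strand), which lies within it on the other strand, was at 3.05, 2.75 and 2.20 CPM against 0.0533, 0 and 0.046 CPM. With at most 2 counts in any pGFP library it was at least 36.9-fold higher. Whether strand was used in counting is not given in the sources used here, so reads of these overlapping genes cannot be told apart, and neither value is certain. The mature microRNA was not measured. Its sequence from RefSeq is shown with the seed, bases 2 to 8, in capitals, since this is the product by which the locus acts on mRNAs.
hsa-miR-34a-5p (chr1:9151735-9151756, minus strand): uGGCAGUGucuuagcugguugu
TP53TG1, a p53-induced transcript, rose from 9.29, 8.58 and 7.98 CPM to 25.4, 23.2 and 19.0 CPM (log2 fold change 1.39, SE 0.24). LINC-PINT fell by 0.32 (SE 0.12, adjusted P = 0.041), and NEAT1 and MALAT1 did not pass, at 0.39 and 0.03.

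Genes of G2 and mitosis were lower, by small amounts. Of 24 members 19 fell, none rose and 5 did not pass, where 11.3% of all genes tested passed lower. The median log2 fold change was −0.55. CDK1 (ENSG00000170312.15, chromosome 10, 60778331 to 60794852) was at 61.4, 74.8 and 56.3 CPM with p53 O6-meG and at 138, 137 and 114 CPM with pGFP. It fell by 1.02 on the log2 scale (SE 0.16, adjusted P = 1.7e-05) and was the only DEG among the 24. CDCA8 was at 53.9, 61.0 and 77.4 CPM against 106, 104 and 113 CPM (log2 fold change −0.74, SE 0.13, adjusted P = 5.3e-05). CDC25C was at 16.8, 21.9 and 26.4 CPM against 36.9, 34.8 and 35.2 CPM (log2 fold change −0.72, SE 0.12). For these 3 genes every p53 O6-meG library lay below every pGFP library. FOXM1, a transcription factor of mitotic genes, was at 183, 185 and 236 CPM against 254, 234 and 261 CPM. Its groups overlapped, the log2 fold change was −0.31 (SE 0.11, adjusted P = 0.031), and the adjusted P was 0.15 without p53 O6-meG replicate 1, 0.14 without replicate 2, 0.085 without pGFP replicate 1 and 0.10 without pGFP replicate 3. CDC20, KIF20A, BIRC5, CCNB1 and AURKB did not pass, with log2 fold changes from −0.40 to 0.11.

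In the G1/S and DNA replication list 20 of 28 members fell, 2 rose and 6 did not pass, with a median of −0.34. CCNE2, the cyclin that partners CDK2, was at 35.3, 31.6 and 31.3 CPM with p53 O6-meG and at 78.5, 79.0 and 68.4 CPM with pGFP (log2 fold change −1.20, SE 0.14, adjusted P = 6.2e-07). E2F1, the transcription factor of the G1/S genes, was at 43.8, 49.6 and 47.1 CPM against 74.7, 77.5 and 73.2 CPM (log2 fold change −0.68, SE 0.09). FBXO5, the inhibitor of the anaphase-promoting complex, was at 29.9, 36.9 and 38.4 CPM against 65.6, 69.1 and 61.4 CPM (log2 fold change −0.90, SE 0.12). The 2 members that rose are named here after their values were seen. They were PCNA, the sliding clamp of replication and repair and itself a p53 target (0.88, SE 0.13), and RRM1, the large subunit of ribonucleotide reductase (0.29, SE 0.08). The number that fell was 12 without p53 O6-meG replicate 1 and 13 without pGFP replicate 3. Of the DREAM and retinoblastoma proteins 3 of 12 rose and 2 fell, with a median of −0.05, which is near the 17.9% and 11.3% over all genes tested. RB1 rose from 87.7, 97.8 and 89.6 CPM to 177, 163 and 143 CPM (log2 fold change 0.81, SE 0.11), whereas its relative RBL1 fell by 0.51 (SE 0.08) and MYBL2, the activator that replaces DREAM repressors in cycling cells, fell by 0.38 (SE 0.07).

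The promoter elements printed above were then counted in the windows in hand. Of the 24 mitotic genes 19 had a window (79.2%), just under the 80% set for a statement about the whole list, so the counts hold for these windows only. The list was drawn up from genes of which many are known to be repressed through the DREAM complex. An excess of its elements therefore follows in part from the choice of the list and is no result of these libraries. A CHR was held by 16 of the 24 windows of these genes (66.7%), against 12.2% of the 18314 windows of genes tested. CHR and CCAAT box stood together in 15 of 24 (62.5%), against 4.83%. In the G1/S list, where 23 of 28 genes (82.1%) had a window, the CHR was in 3 of 31 windows (9.68%). There the E2F element (TTTGGCG or TTTCGCG, either strand) was in 14 of 31 (45.2%), against 4.53% of the windows of genes tested and 8.33% of those of the mitotic genes. The CCAAT box was frequent in the windows of both lists, in 21 of 24 (87.5%) and 23 of 31 (74.2%), against 34.4% of the windows of genes tested. Both elements stood in a window of 13 of the mitotic genes. All of these passed lower except CDC20, which did not pass (log2 fold change 0.01, SE 0.14). Whether the elements had a part in the falls was not tested. The same elements were also counted in the 273 windows of the DEGs that were lower, of which 54.1% had a window. There 45 windows held a CHR (16.5%) and 24 a CHR and a CCAAT box (8.79%), against 12.2% and 4.83% for genes tested. The E2F element was in 14 (5.13%), against 4.53%. A match describes a sequence and not a bound site.

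All 5 genes with a full p53 site in a window were higher with p53 O6-meG, where 17.9% of all genes tested passed higher. DDB2 and LNCTAM34A are described above. MCC was at 108, 95.4 and 73.5 CPM against 39.9, 35.0 and 32.8 CPM (log2 fold change 1.36, SE 0.17, adjusted P = 1e-06). PTCHD4 was at 1.47, 2.16 and 1.60 CPM against 0.293, 0.840 and 0.805 CPM (log2 fold change 1.42, SE 0.32, adjusted P = 0.0011). The remaining gene, DYNC2H1 of the dynein of cilia, rose by 0.33 (SE 0.07, adjusted P = 5e-04), under the 2-fold limit, and its decamers are 12 bases apart. These genes were picked out by sequence but named after their values were seen, and most genes that rose hold no such site in the windows searched.

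Further lists covered signalling and stress. In the AP-1, EGR and ERK feedback list 4 of 20 rose, 2 fell and 14 did not pass, with a median of 0.04, and these shares are near the 17.9% higher and 11.3% lower over all genes tested. EGR2, a zinc finger factor, was at 26.3, 24.7 and 17.6 CPM with p53 O6-meG and at 0.852, 0.613 and 0.368 CPM with pGFP (log2 fold change 5.24, SE 0.67, adjusted P = 1.7e-06). SPRY1, an inhibitor of receptor tyrosine kinase signalling, rose by 3.43 (SE 0.63) and SPRED1, of the same family, fell by 0.44 (SE 0.08). The immediate early genes FOS, JUN and EGR1 did not pass, at −0.14, −0.27 and 0.07. In the interferon and nucleic acid sensing list 6 of 16 rose and 10 did not pass, with a median of 0.47. The RNA sensor gene IFIH1 was at 125, 96.7 and 107 CPM against 58.9, 49.6 and 58.6 CPM (log2 fold change 0.98, SE 0.17, adjusted P = 5.9e-05). STING1, the adaptor of cytosolic DNA sensing, rose by 0.90 (SE 0.16), and CGAS, the sensor upstream of it, rose by 0.46 (SE 0.10). Genes that interferon induces were found on both sides. IFIT3, ISG15 and IFIT2 rose, by 0.78, 0.57 and 0.59 (adjusted P = 0.0033, 0.0033 and 0.034). MX1, OAS1 and IRF7 were among the 10 that did not pass, at 0.54, 0.42 and −0.28.

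Of the ATF4 stress response genes 3 of 11 rose, namely PSAT1 (0.30, SE 0.07), CHAC1 (0.64, SE 0.20) and TRIB3 (0.46, SE 0.15), with a median of 0.25, and 17.9% of all genes tested passed higher. This number was 1 without p53 O6-meG replicate 2 and 6 with the block over the 15 libraries of 24 h. ATF4 itself did not pass, at 0.13 (SE 0.12). Of 10 reference genes GAPDH passed, at 4560, 5170 and 5220 CPM with pGFP and 5450, 5820 and 5930 CPM with p53 O6-meG (log2 fold change 0.20, SE 0.07, adjusted P = 0.022). It failed without pGFP replicate 1 (adjusted P = 0.16), without p53 O6-meG replicate 2 (0.069) and without replicate 3 (0.087). Under the block 6 of the 10 passed higher, and RPLP0, with a log2 fold change of 0.15 (SE 0.07), had an adjusted P of 0.018 there and 0.14 without it. The median of the reference genes was 0.14, against 0.009 over all genes tested.

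The largest rises by fitted fold among genes with a mean of at least 1 CPM over the 6 libraries and groups that lay apart were KCNS2, SULF2, NSG1, the transcript ENSG00000250770, COL15A1, RGMA, DRAXIN and GRHL3. Most were close to silent in pGFP, so only bounds can be given. KCNS2, a modulatory potassium channel subunit, had no count in pGFP and 6.69, 6.60 and 4.47 CPM with p53 O6-meG, at least 81.8-fold higher. SULF2, a sulfatase of heparan sulfate, was at 9.10, 6.79 and 5.24 CPM, at least 97.4-fold higher. The collagen gene COL15A1 was at least 95.7-fold higher, the repulsive guidance gene RGMA at least 94.8-fold, ENSG00000250770 at least 60.4-fold and GRHL3, an epithelial transcription factor, at least 57.4-fold. For NSG1, a protein of neuronal endosomes, and DRAXIN, an axon guidance cue, folds could be fitted. NSG1 was at 76.7, 78.5 and 47.8 CPM against 0.266, 0.0227 and 0.115 CPM (log2 fold change 9.01, SE 1.11). DRAXIN was at 95.8, 84.5 and 55.6 CPM against 0.373, 0.363 and 0.230 CPM (log2 fold change 7.93, SE 1.06). In all 8 genes replicate 3 had the lowest level of the p53 O6-meG libraries.

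Under the same limits of level and separation the largest falls were those of PCDH1, TMEM121B, C2CD4C, GPRIN3, RALYL, TLX3, GFI1 and FST, with log2 fold changes from −2.07 to −1.53. Larger fitted falls, among the 26 genes that fell at least 4-fold, did not meet these limits. PCDH1, a protocadherin of cell adhesion, was at 0.411, 0.491 and 0.343 CPM with p53 O6-meG and at 2.00, 1.52 and 1.79 CPM with pGFP (SE 0.30, adjusted P = 7.3e-06). GFI1, a transcriptional repressor of blood cell development, was at 1.73, 2.67 and 2.32 CPM against 7.48, 7.11 and 6.58 CPM (log2 fold change −1.65, SE 0.17, adjusted P = 1.3e-07). FST, the activin antagonist follistatin, was at 0.939, 0.683 and 0.487 CPM against 2.98, 1.61 and 1.54 CPM (log2 fold change −1.53, SE 0.31). Fewer transcripts per cell and fewer cells that express a gene cannot be told apart in bulk RNA.

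The size of the response differed among the replicates. Between libraries of the same number, the median log2 difference of the 1520 DEGs that were higher was 1.87, 1.67 and 1.43 in replicates 1, 2 and 3, and that of the 379 that were lower was −1.36, −1.13 and −1.14. These genes were called on the same libraries, so the values describe their spread only. The G2 and mitosis list had medians of −0.84, −0.53 and −0.31 by replicate, and the G1/S list of −0.43, −0.37 and −0.20. Death receptors stood at 2.37, 2.09 and 1.93 and mitochondrial apoptosis genes at 1.42, 1.26 and 1.02. In these 4 lists replicate 1 was the farthest from 0, but not in all lists. The other p53 effectors stood at 2, 2.02 and 1.76, the interferon and nucleic acid sensing list at 0.41, 0.42 and 0.45 and DNA repair at 0.13, 0 and 0.12.

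**Figure D3:**
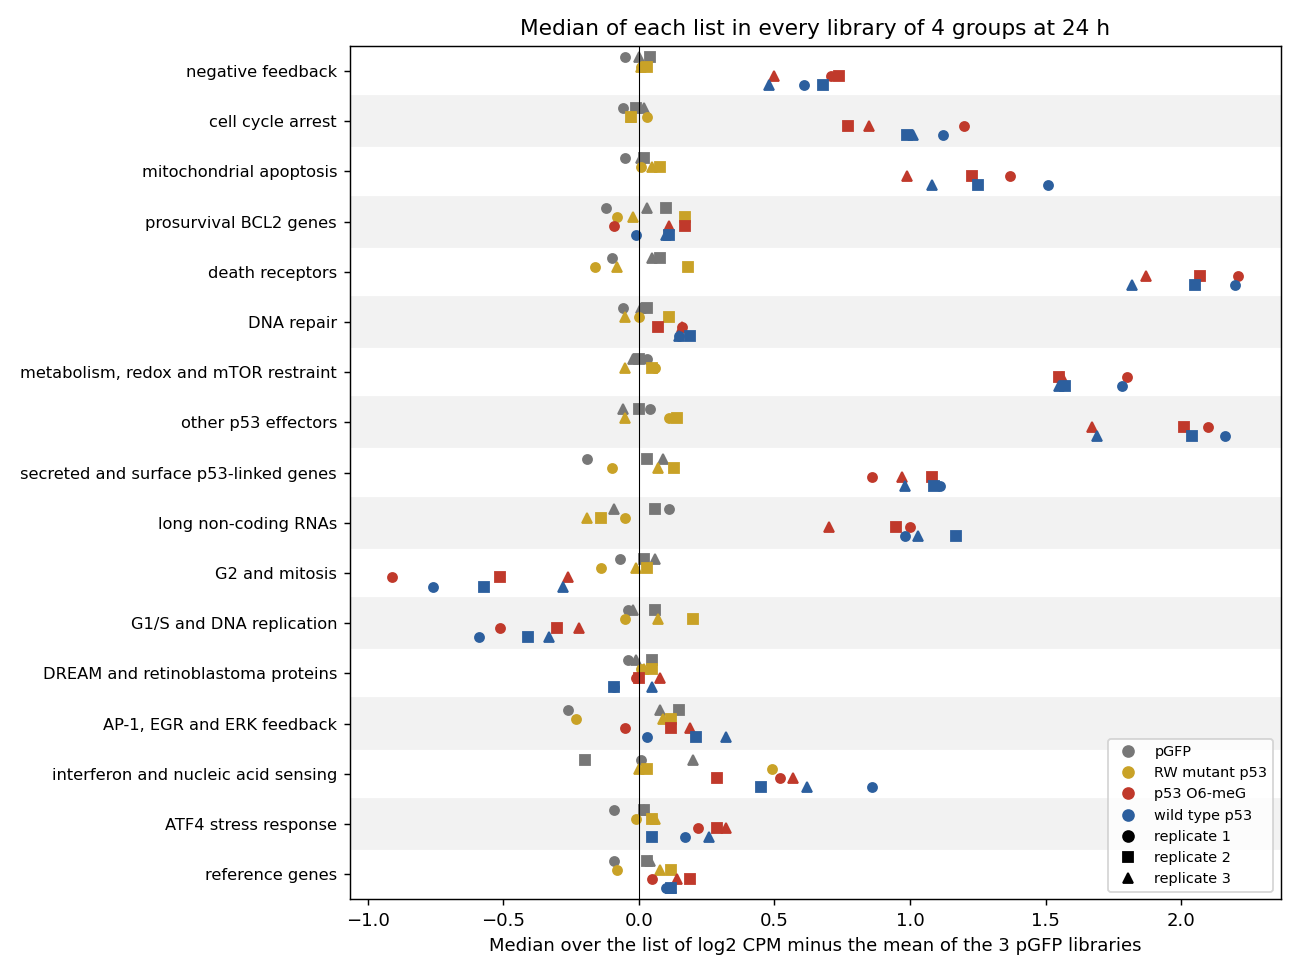
Median of each of 17 gene lists in every library of pGFP, RW mutant p53, p53 O6-meG and wild type p53 at 24 h, as log2 CPM minus the mean of the 3 pGFP libraries (shape marks the replicate). For G2 and mitosis the p53 O6-meG libraries sit at −0.91, −0.51 and −0.26, and for death receptors at 2.21, 2.07 and 1.87, in both cases next to wild type p53 and away from RW mutant p53.

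RW mutant p53, altered in a residue that contacts DNA, was the control for the expression of a p53 protein from the vector. Against pGFP it changed 1 gene (0.00479% of those tested), and 176 genes (0.843%) had an unadjusted P below 0.05. With the block over all 30 libraries 517 genes had an unadjusted P below 0.05. With the block over the 15 libraries of 24 h 682 did, and 3 genes passed. In the fit without the block no member of the lists passed against pGFP, and the list medians lay between −0.08 and 0.23. The highest of these was that of the interferon and nucleic acid sensing list, of which RW mutant p53 replicate 1 stood at 0.49, while replicates 2 and 3 stood at 0.03 and 0. The p53 O6-meG libraries stood at 0.52, 0.29 and 0.57 on this measure. Against RW mutant p53, p53 O6-meG had 1518 DEGs higher (7.27%) and 312 lower (1.49%), the latter 203 without RW mutant p53 replicate 1. There 17 of the 24 mitotic genes and 18 of the 28 G1/S genes were lower and passed, and so did 11 of 17 mitochondrial apoptosis genes and 6 of 9 death receptors in the higher direction. Over all genes tested 17.2% passed higher and 11.2% lower. Of the interferon and nucleic acid sensing list 4 of 16 were higher and 1 lower against RW mutant p53, in place of 6 and 0 against pGFP. ISG15 and IFIT2, which passed against pGFP, had an adjusted P of 0.07 and 0.38 here, and IRF7 was lower (−0.53, adjusted P = 0.02). IFIT3, IFIH1, STING1 and CGAS were 0.54, 0.78, 0.85 and 0.40 higher on the log2 scale (adjusted P = 0.041, 0.00073, 0.00017 and 0.0028). MX1 differed by 0.04 (adjusted P = 0.97).

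Against wild type p53, no gene (0%) passed an adjusted P of 0.05 by edgeR's quasi-likelihood test, while 882 (4.23%) had an unadjusted P below 0.05. These 2 counts are from the fit without the block, which does not use the pairing. With the block over all 30 libraries 2151 of 20875 genes had an unadjusted P below 0.05, and 5 were DEGs. With the block over the 15 libraries of 24 h these numbers were 2767 of 20124 genes and 15 DEGs. DESeq2 called 1 gene and had 722 at an unadjusted P below 0.05. For the chief targets the intervals state how large a difference could have been missed. CDKN1A differed by −0.02 on the log2 scale (95% interval −0.87 to 0.84), MDM2 by 0.11 (−0.65 to 0.86), BAX by 0.05 (−0.31 to 0.41), FAS by 0.01 (−0.75 to 0.77) and XPC by 0.12 (−0.27 to 0.51). The intervals of BBC3 (−0.95 to 0.95), SESN1 (−0.68 to 1.03) and GDF15 (−1.18 to 1.37) were wider. An equal level was therefore not shown for any of these genes, and smaller differences could have been missed. All of these intervals but those of SESN1 and GDF15 leave out a 2-fold difference, and those of BAX and XPC are the narrowest. They are from the fit without the block and do not use the pairing. The median SE of the genes tested was 0.17 in this fit. It was 0.13 with the block over all 30 libraries and 0.103 with the block over the 15 libraries of 24 h. List medians of the difference lay between −0.18 for secreted and surface genes and 0.10 for G1/S genes. CDK1 was 0.31 (−0.02 to 0.63) and CCNE2 0.35 (0.06 to 0.64) above wild type p53, with adjusted P of 1 for both in this fit without the block. CCNE2 passed in a block fit, given below.

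**Figure D4:**
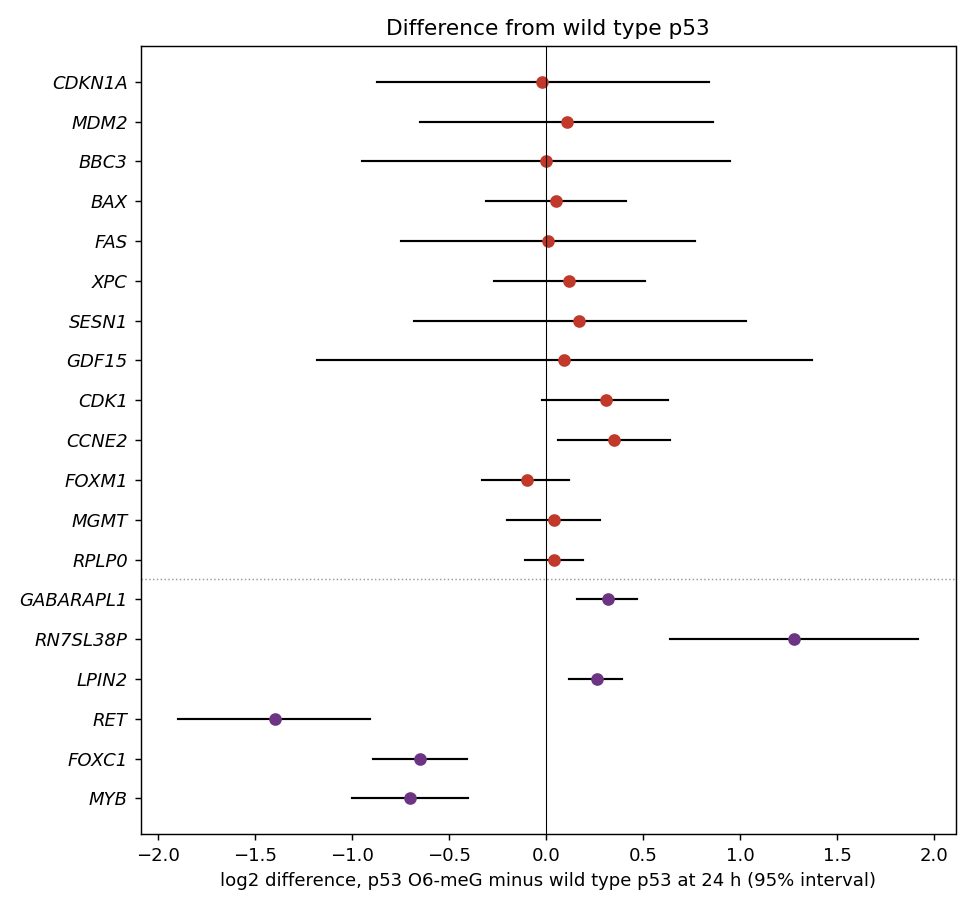
Log2 difference of p53 O6-meG minus wild type p53 at 24 h with its 95% interval (points, estimates; bars, intervals). Above the dotted line are 13 genes fixed by name, of which CCNE2 alone has an interval that leaves out 0 (0.06 to 0.64), and below it the 3 genes with the smallest P on each side, which were chosen for their difference.

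Since the replicate numbers pair the 24 h libraries, the block fits are given beside this count. With the block over all 30 libraries 13 genes passed, 12 lower (0.0575%) and 1 higher (0.00479%) than with wild type p53. With the block over the 15 libraries of 24 h, 74 passed, 67 lower (0.333%) and 7 higher (0.0348%), and all 13 were among the 74. The 74 included CCNE2, which was higher than with wild type p53 (0.34, adjusted P = 0.018). They also included the list members RPRM and JAG1, which were lower (−0.59 and −0.34, adjusted P = 0.011 and 0.022). RET, a receptor tyrosine kinase, was at 0.851, 1.45 and 1.06 CPM with p53 O6-meG, at 3.73, 3.02 and 2.25 CPM with wild type p53 and at most at 2 counts in a pGFP library. Its difference was −1.40 (−1.90 to −0.91), with an adjusted P of 0.083 without the block and 0.0039 with it. FOXC1, a forkhead factor, was at 9.72, 10.8 and 13.3 CPM against 19.8, 15.7 and 17.5 CPM with wild type p53 and 9.29, 9.97 and 10.3 CPM with pGFP. Its difference was −0.65 (−0.89 to −0.41), with an adjusted P of 0.091 without the block and 0.014 with it, and it is the gene that DESeq2 called. So RET rose with p53 O6-meG by less than with wild type p53, and FOXC1 did not pass against pGFP (0.19, SE 0.12).

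Further genes of the block fits, named after their values were seen, were also below wild type p53. INHBB, a subunit of activin B, was at 0.176, 0.149 and 0.114 CPM with p53 O6-meG and at 0.777, 0.626 and 0.759 CPM with wild type p53, on 4 to 7 and 29 to 32 counts. BMP2, a ligand of the same superfamily, was at 3.58, 3.18 and 2.66 CPM against 6.54, 4.73 and 4.27 CPM. SIRPA, the receptor of CD47, was at 9.25, 7.77 and 7.70 CPM against 24.5, 15.7 and 12.4 CPM. The block gave differences of −2.26, −0.70 and −1.03 for these genes, with adjusted P of 0.014, 0.014 and 0.018, and without it their adjusted P were 0.36, 0.92 and 0.92. These genes were chosen for being below wild type p53, so the order of their libraries is a description. GABARAPL1, an autophagy protein of the ATG8 family, went the other way. It was at 70.7, 72.5 and 71.6 CPM with p53 O6-meG, at 55.7, 58.1 and 58.4 CPM with wild type p53 and at 89.2, 82.8 and 80.9 CPM with pGFP. Its difference from wild type p53 was 0.32 (0.16 to 0.47), with an adjusted P of 0.66 without the block and 0.014 with it. MYB, RN7SL38P and LPIN2, the remaining genes named by their P values, differed by −0.70, 1.28 and 0.26, with adjusted P of 0.34, 0.70 and 0.88. Neither block fit called them.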

How the data were processed

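RNA-seq was done by the authors on ribosome-depleted, strand-marked libraries of sorted H1299 cells. They aligned single reads to hg38 with STAR v2.5.3a, counted them on GENCODE v27 with featureCounts (Subread v1.5.2), and deposited raw read counts per gene, which are used here. Use of strand in counting is not given in the sources used here. The 30 columns of a deposited normalized table were not used.

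The edgeR package (version 4.0.16, R 4.3.3) was used. Its filterByExpr, given the 10 groups, kept 20875 genes, libraries were scaled by TMM, and all 30 libraries (32302699 to 71950532 counts) were fitted in 1 quasi-likelihood model without a block, with Benjamini-Hochberg adjustment per comparison. Intervals and standard errors follow from the F statistic. Alternatives were DESeq2 size factors, the DESeq2 1.42.0 Wald test, other filters, fewer libraries, the other grouping of 2 libraries of 6 h whose titles conflict, a replicate block and each library left out. Series text names biological triplicates. At 24 h residuals of same-numbered libraries of different groups correlated in all 30 pairs (0.367 to 0.834). Between different numbers the median was −0.453, though 14 of 60 pairs lay above 0.1 and the highest was 0.427. Numbers are taken as pairing. Libraries of 1 group differed beyond counting noise (chi-square per degree of freedom 6.8 to 27.9). Scripts were tested on simulated data.

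Of 254 list members 242 were tested, 8 were removed by the filter on low counts and 4 had no matching row. The members, gene lists and tests were chosen with earlier results of these data known. Genes named are 13 fixed ones, the 3 smallest P of each list, the 8 largest rises and falls among DEGs with at least 1 CPM and groups apart, and the 3 smallest P on each side against wild type p53. Other list members, and genes marked as such in the text, were named after their values had been seen. Coordinates are from GENCODE v44 (38904 of 39359 genes matched). Of the genes tested, 12787 (61.3%) had a RefSeq promoter window. The gene carried by the vectors and 1 list member are not reported here.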

Additional observations from a re-analysis of the deposited data

How the results depend on the processing

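Over the alternatives to the fit, 23 of 250 counts and, with 1 library left out, 12 of 150 moved by more than 1.5 times from the reported value. No named gene changed sign with a call on either side. Of 862 values of named genes under other fits 12 lost their call and 18 gained one, and of 522 with a library left out 19 lost it and 4 gained one. Where no cause is stated it was not tested.

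Asking for a mean of at least 1 CPM, which tests fewer weakly expressed genes, lowered the DEGs against pGFP to 866 higher and 112 lower, and those against RW mutant p53 to 847 and 87. A fit of only the 6 libraries compared left 1562 genes lower against pGFP at an adjusted P below 0.05, and the replicate block gave 3656 (all libraries) and 4419 (the 15 libraries of 24 h). Against wild type p53, DESeq2 called 1 gene, each of both treatments of the conflicting 6 h titles called 2 (RET and FOXC1), and the block called 13 and 74. Against pGFP, RW mutant p53 had 3 genes with the block over 24 h. Genes at an unadjusted P below 0.05 rose to 2151 (all libraries) and 2767 (24 h) against wild type p53 with the block. For RW mutant p53 against pGFP they rose to 517 and 682. DEGs against wild type p53 numbered 5 and 15. The replicate block changed no other count of genes at an adjusted P below 0.05 by more than 1.5 times apart from 2 lists. These were ATF4 stress response (6 with the block over 24 h) and reference genes (6 with either block). The block over all libraries kept 1879 of the 1899 DEGs against pGFP (98.9%), which were 90.7% of its own 2072.

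Without a filter the prosurvival list had 0 members higher, ATF4 stress response 1 and reference genes 0. Reference genes higher also numbered 0 with DESeq2 size factors, with the 15 libraries of 24 h and with the 6 compared, and 2 with the other grouping of titles. Scaling with DESeq2 size factors gave 1456 DEGs higher and 421 lower. Total counts alone would move the median log2 fold change of genes at 1 CPM or more to −0.129, from 0.006 with TMM.

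With 1 library left out, DEGs against pGFP ran from 1313 to 1665 higher and from 205 to 477 lower, and those against RW mutant p53 from 1281 to 1695 and from 203 to 386. Genes at an adjusted P below 0.05 ran from 3272 to 3588 higher and from 1650 to 2056 lower. Those against wild type p53 ran from 0 to 1, the G1/S list from 12 to 19, ATF4 stress response from 1 to 3 and reference genes from 0 to 2. Depth limits the low genes: with 32302699 to 46469960 counts a level of 0.1 CPM is a few reads.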
